A study of Rattus norvegicus with 10 samples.

Results

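Liver expression of 10 genes that belong to the protein folding machinery of the endoplasmic reticulum (ER) and to the unfolded protein response (UPR) was examined in rats after total-body irradiation (TBI). The genes were Hspa5, Hsp90b1, Xbp1, Dnajb9, Herpud1, Pdia4, Pdia6, Calr, Sdf2l1 and Atf6, and a gene was taken as measured where the accession of a non-control probe gave its symbol. By this rule 9 of the 10 genes had a probe, among 13426 genes with a symbol on the arrays, and the expression of Xbp1 was not analysed here. Hsp90b1, Dnajb9 and Herpud1 each had 2 probes, so that 12 probes of 40945 tested represented the genes, and all 12 were well above background on all 10 arrays.

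RNA came from whole liver of male Wistar rats, taken 24 h after irradiation and hybridised to 1-colour Agilent arrays, 1 array per rat. The control group (3 rats) received neither agent. The TBI group (3 rats) was given 6.5 Gy, the dose in the labels of the arrays (the study's text names other doses), from a 60Co source at 2 Gy/min. The MASM + TBI group (4 rats) received the same exposure after MASM, a derivative of the plant alkaloid matrine, given into the stomach at 30 mg/kg/day for 3 consecutive days, and no group with MASM alone was among these arrays. Levels are log2 of the background-corrected fluorescence after quantile normalization, which gives all arrays the same distribution of values. They compare rats for a given probe, and levels of different probes are not comparable with each other. In whole liver, fewer cells of a type and less RNA per cell cannot be told apart.

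The share of probes well above background was 57.2 to 59.9% on control arrays, 64.1 to 70.1% on TBI arrays and 56.2 to 60.2% on MASM + TBI arrays, and the raw signal of TBI rat 3 was the brightest, with a median of 5.82 on the log2 scale. All 3 TBI arrays lay on slide 2, which held no other group, so slide and group cannot be told apart in any comparison with TBI arrays. MASM + TBI rats 1, 2 and 4 lay on slide 3, whereas MASM + TBI rat 3 shared slide 1 with the 3 control rats. As a check of the exposure, Cdkn1a, a p53 target that encodes a cell cycle inhibitor, had levels of 8.01 to 8.84 in control rats, 13.47 to 14.06 in TBI rats and 12.80 to 13.58 in MASM + TBI rats. All 10 hepatocyte markers listed for this work, such as Alb and Ttr, were well above background on all arrays and none was called in any comparison. At an unadjusted p under 0.05, 5 of them passed in TBI and 4 in MASM + TBI against control, where 23.5% and 17% of all probes did. Their summed signal was 1007000 to 1047000 in control, 805800 to 974600 in TBI and 923400 to 985000 in MASM + TBI rats, so in this sum the control rats lay above all irradiated rats. Serpina1 made up 20.5 to 29.6% of the sum. The median log2 difference of the 10 markers from control was 0.07 in TBI and 0.12 in MASM + TBI, with 5 and 7 estimates above 0. In TBI the estimates ran from −1.46 (Cyp2c11) to 1.53. Of 9 T and natural killer cell markers, 3 were called lower in TBI (Cd2, Cd3e and Cd3g) and 2 in MASM + TBI (Cd3e and Cd3g) against control, where 3.19% and 1.73% of all probes were. Cd3e was not well above background on any array, so nothing is read from its call, and Cd2 was not so on any TBI array. Cd3g was well above background on 3 control, 2 TBI and 1 MASM + TBI arrays. The unadjusted p was under 0.05 for 3 of the 9 in TBI and 8 in MASM + TBI against control, Cd3e included, beside 23.5% and 17% of all probes. Of the 4 that were well above background on all arrays (Cd3d, Gzmb, Nkg7 and Prf1), it was so for 0 and 3, with median log2 differences of −0.50 and −1.42. The summed signal of this list was 1634 to 3097, 902.4 to 2238 and 725 to 1219 in the same order of groups. Of 7 B and plasma cell markers, Cd79b was called lower in both irradiated groups, where it was not well above background. The median log2 difference of that list was −1.41 in TBI and −0.94 in MASM + TBI, although its summed signal (9120 to 12590, 8677 to 11760 and 11300 to 13860) was 97.3 to 99.6% Sdc1. Only 2 of the 7 (Pou2af1 and Sdc1) were well above background on all arrays. Their median was −0.90 in TBI and −0.49 in MASM + TBI, with 1 of 2 estimates above 0 in each. Kupffer cell markers had 0 calls of 7 in limma in any comparison, beside 5.63%, 2.99% and 1.63% of all probes. At an unadjusted p under 0.05, 1 passed in TBI and 0 in MASM + TBI against control, and 5 passed between the irradiated groups. All probes passed there at 23.5%, 17% and 17%. Against control, 6 of the 7 marker estimates were above 0 in TBI (median 0.46) and 1 in MASM + TBI (median −0.22). The summed signal of the Kupffer cell markers, 74.1 to 82.9% of it Clec4f, was 47610 to 67750, 47270 to 88140 and 37620 to 46680. The part of other cell types in the ER gene levels below was not tested.

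Proteins bound for secretion fold inside the ER with the help of chaperones, and the liver, which makes most plasma proteins, depends heavily on this machinery. When unfolded proteins build up, the ER membrane sensors IRE1, PERK and ATF6 are activated. Cleaved ATF6 and the transcription factor made from spliced Xbp1 mRNA raise transcription of chaperones and of genes for ER-associated degradation, while PERK slows translation and favours synthesis of the transcription factor ATF4. Hspa5 (also BiP or GRP78), the ER Hsp70 chaperone that also binds the sensors, and Hsp90b1 (GRP94), the ER Hsp90 chaperone, are the classical readouts of this response. Calr encodes calreticulin, a calcium-binding lectin chaperone, Pdia4 and Pdia6 encode protein disulfide isomerases, and Dnajb9 and Sdf2l1 encode co-chaperones of Hspa5. Herpud1 encodes an ER membrane protein of the degradation machinery.

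Promoter sequences of the genes were searched for the ER stress response elements, through which ATF6 and XBP1 act. The first, ERSE, reads CCAAT, 9 bases of any kind and CCACG, and the second, ERSE-II, reads ATTGG, 1 base of any kind and CCACG. Both strands of the 250 bases before each gene start were read in the RefSeq promoters of assembly GRCr8. ERSE was present in 0.0657% of all 33469 promoters and ERSE-II in 0.0418%. Of the 8 promoters available for the 10 genes, 4 held ERSE (Hspa5, Hsp90b1, Xbp1 and Calr), 1 held ERSE-II (Herpud1), and Dnajb9, Pdia4 and Sdf2l1 held neither spelling in this window. No promoter of Pdia6 or Atf6 was in the table. The promoters of Hspa5, Hsp90b1 and Herpud1 are printed below, since the results turn on these genes. Capitals mark the matches, and the last base is the one before the gene start. The Hspa5 promoter (chr3:38452766-38453015, plus strand) had a match 43 to 25 bases upstream. The Hsp90b1 promoter (chr7:23012294-23012543, minus strand) had one at 176 to 158 bases and another, on the opposite strand, at 72 to 54 bases. The Herpud1 promoter (chr19:10614708-10614957, minus strand) had its ERSE-II match 124 to 114 bases upstream. These matches are letters in a window, and binding to them was not measured.
Hspa5: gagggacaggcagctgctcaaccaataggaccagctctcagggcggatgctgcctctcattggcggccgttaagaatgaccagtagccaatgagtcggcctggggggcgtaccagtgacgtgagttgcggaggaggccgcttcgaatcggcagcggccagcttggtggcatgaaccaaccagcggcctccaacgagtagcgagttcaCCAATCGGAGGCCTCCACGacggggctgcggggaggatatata
Hsp90b1: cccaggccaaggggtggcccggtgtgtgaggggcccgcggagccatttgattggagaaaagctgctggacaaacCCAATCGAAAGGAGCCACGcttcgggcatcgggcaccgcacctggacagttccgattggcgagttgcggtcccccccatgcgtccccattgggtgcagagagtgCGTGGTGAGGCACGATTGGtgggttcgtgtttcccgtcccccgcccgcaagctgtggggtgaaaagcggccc
Herpud1: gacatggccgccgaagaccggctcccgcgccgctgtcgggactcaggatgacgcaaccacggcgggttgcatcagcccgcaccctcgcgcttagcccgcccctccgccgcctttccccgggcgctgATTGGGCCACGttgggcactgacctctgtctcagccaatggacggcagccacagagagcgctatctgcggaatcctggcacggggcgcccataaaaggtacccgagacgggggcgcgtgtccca

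Of the 9 measured genes, the brightest probe of 1 rose (Hsp90b1) and that of 1 fell (Herpud1) 24 h after TBI relative to control, and the other 7 did not pass the test. The test was limma on all probes with the Benjamini-Hochberg adjusted p under 0.05, by which 5.63% of all probes tested were called, 2.44% higher and 3.19% lower. With the replicate number as a block 0 of the 9 genes were called, and 1053 probes in place of 2305. At an unadjusted p under 0.05 the count was again 2 of 9 genes, where 23.5% of all probes passed. With the additional requirement of a fold change of at least 1.5, which the study's methods used, it was 0 of 9, where 12.6% of all probes passed. Groups that did not overlap were seen for 1 gene in each direction, against 11.3% of all probes higher and 19% lower in TBI. The median log2 fold change of the 9 genes was 0.07, and that of all probes was −0.03. Single genes ranged from −0.53 to 0.51. For 4 of the 7 genes that did not pass, the 95% interval of the difference stayed within 1.5-fold in both directions, and it reached beyond for Pdia4, Sdf2l1 and Atf6.

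**Figure D1:**
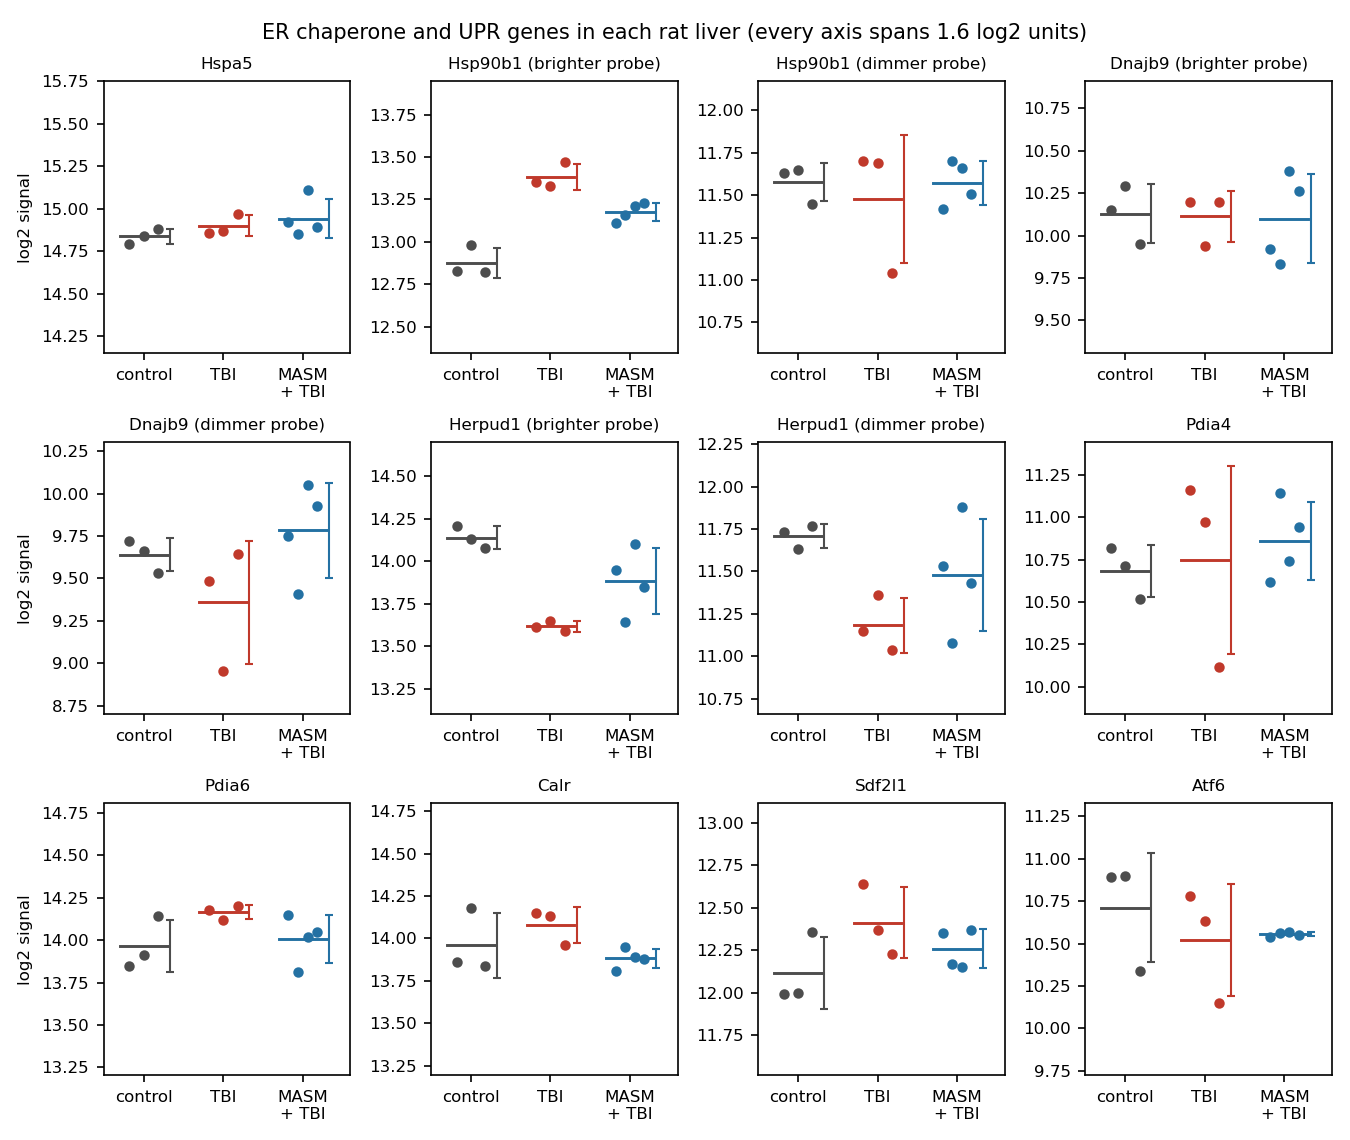
Log2 signal (y axis) of each of the 12 probes in every rat (points), by group (x axis), with the group mean as a horizontal line and the SD as the bar beside it; each panel spans 1.6 log2 units. Hsp90b1 (brighter probe) was 12.82 to 12.98 in control and 13.33 to 13.47 in TBI rats, Herpud1 (brighter probe) was 14.08 to 14.21 and 13.59 to 13.65, and Hspa5 stayed between 14.79 and 15.11 in all 10 rats.

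Hsp90b1 showed the clearest separation of the groups. Its brighter probe gave log2 levels of 12.83, 12.98 and 12.82 in the control rats, 13.35, 13.33 and 13.47 in the TBI rats, and 13.11, 13.16, 13.21 and 13.23 in the MASM + TBI rats. All TBI rats were above all MASM + TBI rats, which in turn were all above the control rats. The increase in TBI over control was 0.51 on the log2 scale (SE 0.08, adjusted p = 0.0116 by limma), a 1.42-fold change with a 95% interval of 1.25 to 1.61. MASM + TBI minus control was 0.30 (SE 0.07, adjusted p = 0.0740), and within slide 1 the value of MASM + TBI rat 3 minus the control mean was 0.34. MASM + TBI minus TBI was −0.20 (SE 0.07, adjusted p = 0.217). The last 2 differences did not pass the adjustment over all probes, and the comparisons share samples.

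The dimmer Hsp90b1 probe did not follow this order. Its log2 levels were 11.63, 11.65 and 11.45 in control, 11.70, 11.69 and 11.04 in TBI, and 11.42, 11.70, 11.66 and 11.51 in MASM + TBI rats, so the groups overlapped and TBI rat 3 was lowest of all. TBI minus control was −0.10 (SE 0.18, adjusted p = 0.771). Over the 10 arrays the correlation between the 2 Hsp90b1 probes was r = −0.26. With the mean of both probes in place of the brighter one, TBI minus control became 0.20 (adjusted p = 0.257). The call also ended with only the groups compared in the model (adjusted p = 0.0643), and with the replicate number as a block (adjusted p = 0.0591), whereas it held when any 1 of the 10 rats was left out (adjusted p 0.0180 to 0.0473). Where in the transcript the 2 probes lie was not analysed here.

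Herpud1 moved in the opposite direction, and both of its probes gave the same size of difference. The brighter probe gave log2 levels of 14.21, 14.13 and 14.08 in control, 13.61, 13.65 and 13.59 in TBI, and 13.95, 13.64, 14.10 and 13.85 in MASM + TBI rats. All TBI rats lay below all control rats, while the MASM + TBI rats spread from within the TBI range to within the control range. The fall in TBI relative to control was −0.53 on the log2 scale (SE 0.11, adjusted p = 0.0369), which is 0.693 of the control level. For the dimmer probe, levels of 11.73, 11.63 and 11.77 in control stood against 11.15, 11.36 and 11.04 in TBI and 11.53, 11.08, 11.88 and 11.43 in MASM + TBI rats. There TBI minus control was also −0.53 (SE 0.18, adjusted p = 0.134). In both probes MASM + TBI rat 2 was the lowest and rat 3 the highest of the group, and the probes correlated with r = 0.93 over the 10 arrays.

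For Herpud1, MASM + TBI minus control was −0.26 (SE 0.11, adjusted p = 0.273) and MASM + TBI minus TBI was 0.27 (SE 0.11, adjusted p = 0.246), so neither passed the test. Rat 3 of the MASM + TBI group, on the slide of the control rats, differed from the control mean by −0.04 in the brighter and by 0.17 in the dimmer probe. The call in TBI depended on single rats. The adjusted p rose above 0.05 when any of 8 of the 10 rats was left out (0.0556 to 0.102) and stayed under it without MASM + TBI rat 2 or rat 3. With the replicate number as a block it was 0.103.

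Hspa5 itself did not pass the test in any comparison. Its log2 levels were 14.79, 14.84 and 14.88 in control, 14.86, 14.87 and 14.97 in TBI, and 14.92, 14.85, 15.11 and 14.89 in MASM + TBI rats. The groups overlapped, and the highest value belonged to MASM + TBI rat 3. TBI minus control was 0.06 (SE 0.09, adjusted p = 0.689), with a 95% interval for the fold change of 0.912 to 1.20. MASM + TBI minus control was 0.11 (SE 0.08, adjusted p = 0.589), and MASM + TBI minus TBI was 0.04 (SE 0.08, adjusted p = 0.835). Although the probe was bright, no spot on any array was marked as saturated.

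Among the disulfide isomerases, Pdia6 had log2 levels of 13.85, 13.91 and 14.14 in control, 14.18, 14.12 and 14.20 in TBI, and 14.15, 13.81, 14.02 and 14.05 in MASM + TBI rats. Its TBI minus control difference was 0.20 (SE 0.11, adjusted p = 0.326), since control rat 3 lay within the TBI range. Pdia4 had the largest SE of the 9 genes, through its spread in TBI rats (SD 0.56, against 0.15 in control and 0.23 in MASM + TBI rats). It stood at 10.82, 10.71 and 10.52 in control, 11.16, 10.97 and 10.12 in TBI, and 10.62, 11.14, 10.74 and 10.94 in MASM + TBI rats, so TBI rats held both the highest and the lowest value. TBI minus control was 0.07 (SE 0.26, adjusted p = 0.903), and without TBI rat 3 it was 0.38.

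Calr, the lectin chaperone, had log2 levels of 13.86, 14.18 and 13.84 in control, 14.15, 14.13 and 13.96 in TBI, and 13.81, 13.95, 13.89 and 13.88 in MASM + TBI rats. The MASM + TBI rats lay below the TBI rats without overlap, by a difference of −0.20 (SE 0.10, adjusted p = 0.377) that did not pass the test. Sdf2l1, which acts with Hspa5, stood at 11.99, 12.00 and 12.36 in control, 12.64, 12.37 and 12.23 in TBI, and 12.35, 12.17, 12.15 and 12.37 in MASM + TBI rats. Its TBI minus control difference of 0.30 (SE 0.14, adjusted p = 0.257) was the second highest of the 9 genes, and the groups overlapped through control rat 3 and TBI rat 3.

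Dnajb9, a co-chaperone induced through the IRE1 and XBP1 branch, had levels of 10.15, 10.29 and 9.95 in control, 10.20, 9.94 and 10.20 in TBI, and 9.92, 9.84, 10.38 and 10.26 in MASM + TBI rats for the brighter probe, with TBI minus control at −0.02 (SE 0.17, adjusted p = 0.966). The dimmer probe ranged from 9.53 to 9.72 in control, 8.95 to 9.64 in TBI and 9.41 to 10.05 in MASM + TBI rats. Its MASM + TBI minus TBI difference was 0.42 (SE 0.20, adjusted p = 0.323), against −0.01 for the brighter probe. Atf6, the sensor, stood at 10.89, 10.90 and 10.34 in control and 10.78, 10.63 and 10.15 in TBI rats. The 4 MASM + TBI rats were nearly identical, at 10.54, 10.56, 10.57 and 10.55, and lay inside the range of both other groups. TBI minus control was −0.19 (SE 0.19, adjusted p = 0.584).

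**Figure D2:**
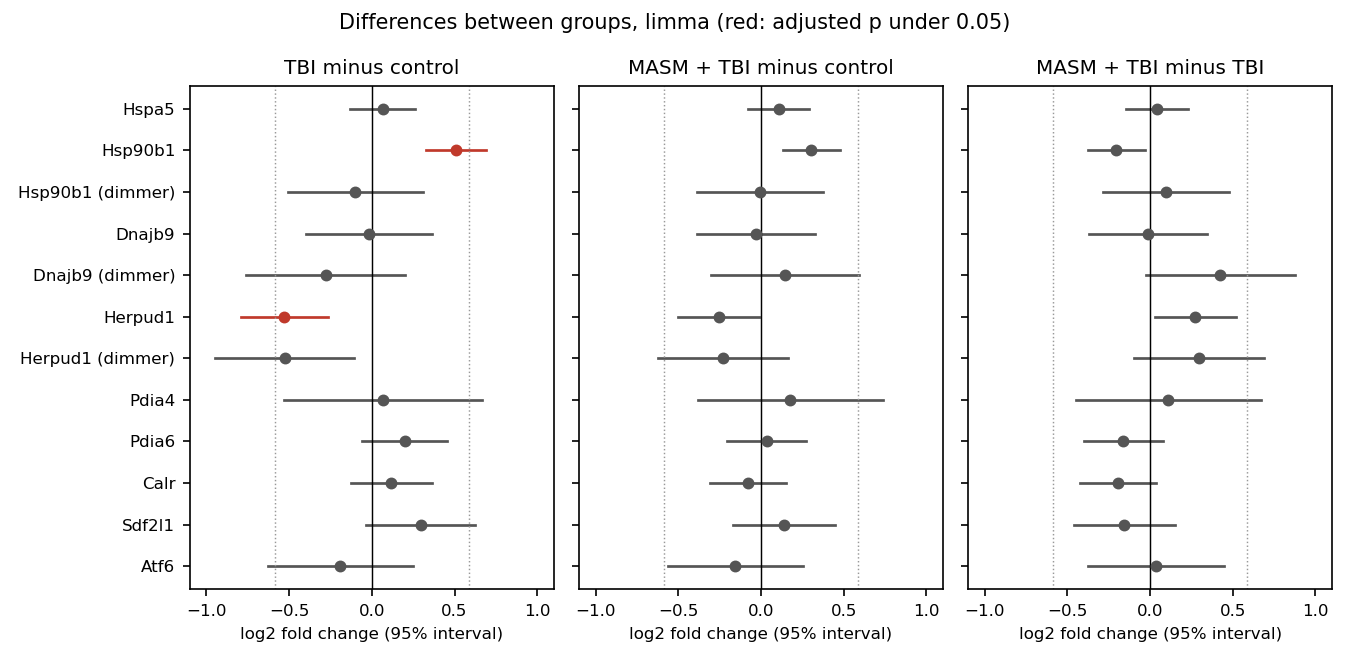
Log2 fold change (x axis) with its 95% interval for each probe (y axis; "dimmer" marks the second probe of a gene) in the 3 comparisons, from limma; the solid line is 0, the dotted lines are 1.5-fold, and red marks an adjusted p under 0.05. Red appears only for Hsp90b1 (0.51) and Herpud1 (−0.53) in TBI minus control.

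After MASM and TBI, 0 of the 9 genes passed an adjusted p under 0.05 in limma against control, where 2.99% of all probes did. At an unadjusted p under 0.05, 2 did (Hsp90b1 and Herpud1), against 17% of all probes, and 0 reached 1.5-fold as well, against 8.06%. Only Hsp90b1 had groups without overlap, all MASM + TBI rats being higher, which held for 9.35% of all probes. The median log2 fold change of the genes was 0.04 and that of all probes 0.00, and single genes ranged from −0.26 to 0.30. The 95% interval stayed within 1.5-fold for 8 of the 9 genes, Pdia4 being the exception.

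The question of what the pretreatment changed in irradiated rats is asked by MASM + TBI against TBI. These groups shared no slide, so slide and pretreatment cannot be told apart in this comparison. Here 0 of the 9 genes passed an adjusted p under 0.05 in limma, where 1.63% of all probes did. At an unadjusted p under 0.05, 2 passed (Hsp90b1 at −0.20 and Herpud1 at 0.27), against 17% of all probes. None reached 1.5-fold as well, against 7.98%. Hsp90b1 and Calr were lower in all MASM + TBI rats than in all TBI rats, a pattern held by 5.88% of all probes. The median log2 fold change of the genes was −0.01, and that of all probes was 0.04. In the same comparison all 7 Kupffer cell markers had estimates below 0, with a median of −0.86, and 5 had an unadjusted p under 0.05. Their part in the ER gene values was not tested. Hsp90b1 was 12.88 ± 0.09 (SD, n = 3) in control, 13.18 ± 0.06 (SD, n = 4) in MASM + TBI and 13.38 ± 0.08 (SD, n = 3) in TBI. Herpud1 was 14.14 ± 0.07, 13.89 ± 0.19 and 13.61 ± 0.03 in the same order.

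Correlations between the genes over the rats ran in both directions. Across the 10 arrays the highest correlations among the 36 gene pairs were those of Pdia6 with Sdf2l1 (r = 0.74) and of Pdia4 with Atf6 (r = 0.64). After the group means were subtracted, which leaves the variation from rat to rat, they were 0.62 and 0.78, and Hsp90b1 with Dnajb9 (0.69), Calr with Atf6 (0.67) and Hspa5 with Herpud1 (0.65) stood between them. The lowest of these values was that of Hspa5 with Pdia4 (−0.62). Before subtraction the lowest was that of Hsp90b1 with Herpud1 (r = −0.83), which became −0.03 after the group means were subtracted. These values describe 10 arrays that share slides and normalization. The rank of single rats also varied by gene, since MASM + TBI rat 3 was the highest of its group for 6 of the 12 probes and control rat 3 the lowest of its group for 8. TBI rat 3, which had the brightest raw signal, was the lowest of its group for 7 probes and the highest for 5.

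Outside the ER lists, the genes whose levels followed Hspa5 most closely over the 10 arrays were Arf1 (r = 0.93), Fgfr4 (r = 0.92), Trir (r = 0.91), Decr2 (r = 0.90) and Fam3a (r = 0.89), of 8332 genes well above background on all arrays. Arf1 is a small GTPase of vesicle traffic and Fgfr4 is a growth factor receptor that hepatocytes use in bile acid control. The differences of these 5 genes between TBI and control were 0.04 to 0.13 on the log2 scale.

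A wider set of 81 ER and UPR genes, of which 62 had a probe, placed these results in the pathway. In TBI against control 3 rose (Atf4, Sesn2 and Ube2g2) and none fell, or 4.84% of the 62, beside 5.63% of all probes called and 2.44% called higher. With the replicate block 3 were also called, of which only Sesn2 was among the same genes. Against control, 2 rose in MASM + TBI (Sesn2 and Ube2g2), or 3.23%, beside 2.99% of all probes called and 1.26% called higher. Between MASM + TBI and TBI, 0 passed the adjusted threshold in limma (1.63% of all probes) and 4 had an unadjusted p under 0.05, which held for 17% of all probes. The median log2 fold changes of the 62 genes were 0.01, 0.07 and 0.04 in the 3 comparisons.

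**Figure D3:**
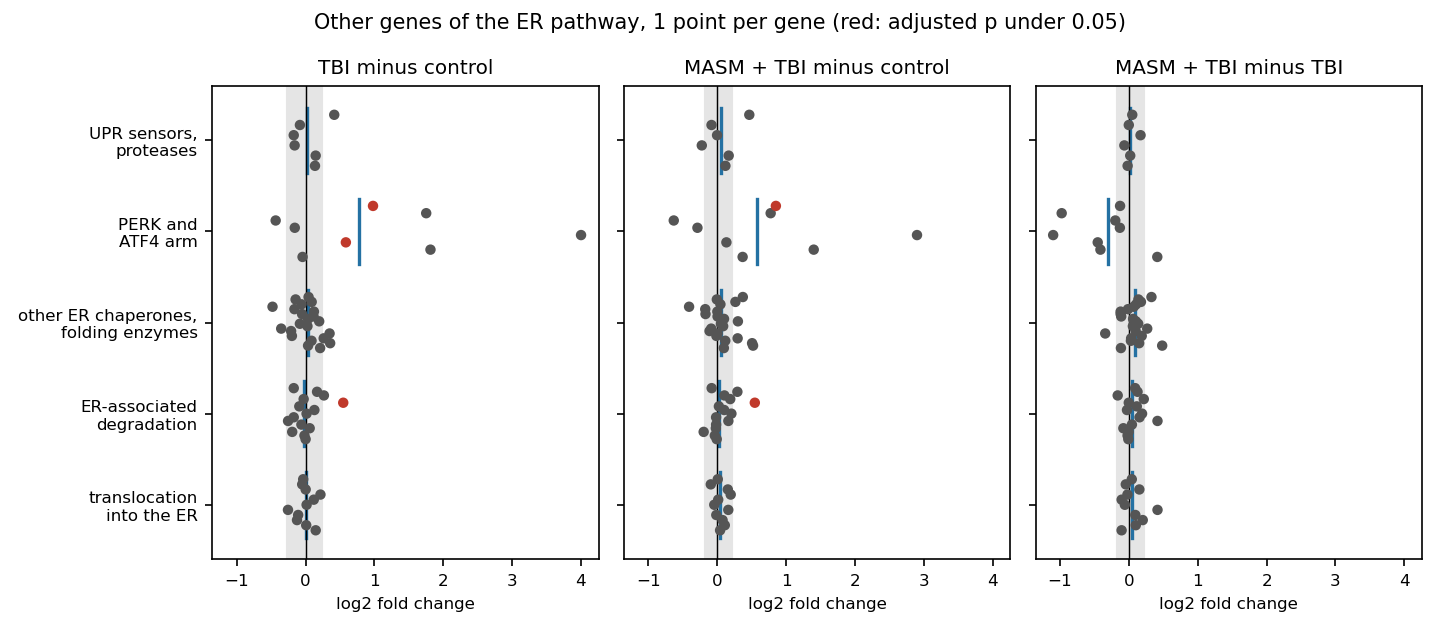
Log2 fold change (x axis) of each gene with a probe (points) in 5 lists of other ER genes (y axis) in the 3 comparisons, with the list median as a blue line; the grey band spans the middle 50% of all probes, and red marks an adjusted p under 0.05. The 22 other chaperones and folding enzymes hold no red point, and the PERK and ATF4 list holds the widest spread, from −0.43 to 4.0 in TBI minus control.

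The other ER chaperones and folding enzymes, 22 of 28 with a probe, gave 0 adjusted calls in limma in any of the 3 comparisons, and all 22 had estimates under 1.5-fold. At an unadjusted p under 0.05, 4, 6 and 2 of them passed in TBI against control, MASM + TBI against control and MASM + TBI against TBI, where 23.5%, 17% and 17% of all probes did. Their median log2 fold change in TBI against control was 0.04. Hyou1, a large Hsp70-like chaperone, was at −0.08, the lectin chaperone Canx at 0.21, and the disulfide isomerases P4hb and Pdia3 at 0.04 and 0.12. Dnajc3, a co-chaperone that restrains PERK, gave 0.26 in TBI (adjusted p = 0.108) and 0.30 in MASM + TBI (adjusted p = 0.0927), both against control. Dnajb11, which works with Hspa5, gave 0.36 (adjusted p = 0.135) and 0.51 (adjusted p = 0.0624). For Dnajc3 and Dnajb11 every irradiated rat was above every control rat, without passing the adjustment. Against control, 11.3% of all probes were higher without overlap in TBI and 9.35% in MASM + TBI. Sdf2 of the same list, named after its values were seen, went the other way. It was at 12.55 to 12.58 in control and 12.27 to 12.53 in irradiated rats. Creld2, a disulfide isomerase-like ER protein, was at 0.04 in TBI and 0.52 in MASM + TBI (adjusted p = 0.158), with all MASM + TBI rats above all other rats.

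Among the sensors and their proteases, 6 of 8 had a probe, 0 passed the adjusted or the unadjusted threshold in limma in any comparison, and Eif2ak3, which encodes PERK, was at −0.17 in TBI against control. Ern1 was not analysed here. Of the ER-associated degradation genes, 15 of 19 had a probe. Sel1l and Syvn1, which form the ubiquitin ligase core with which Herpud1 acts, were at 0.02 and −0.09 in TBI against control. In this list 1 gene was called in TBI and 1 in MASM + TBI against control (6.67% each, beside 5.63% and 2.99% of all probes), and 1, 2 and 0 had an unadjusted p under 0.05 in the 3 comparisons, beside 23.5%, 17% and 17%. Ube2g2, a ubiquitin-conjugating enzyme of this pathway, was the gene called. It stood at 7.69, 7.84 and 7.83 in control, 8.41, 8.32 and 8.27 in TBI, and 8.17, 8.21, 8.54 and 8.41 in MASM + TBI rats, so that all irradiated rats were above all control rats. Its increase was 0.55 in TBI (adjusted p = 0.0303) and 0.55 in MASM + TBI (adjusted p = 0.0337). The first call was lost in 5 and the second in 7 of the 10 fits that left out 1 rat, and both were lost with the replicate block (adjusted p = 0.0895 and 0.153) and with 2 groups per model (0.0531 and 0.0559). The MASM + TBI call was also lost under 75th percentile scaling (0.0670) and with slide as a fixed block (0.0865). Ufd1, a cofactor that helps extract ubiquitinated proteins from the ER, was singled out after its values were seen. Its irradiated rats were also all above the control rats, by 0.17 in TBI (adjusted p = 0.254) and 0.29 in MASM + TBI (adjusted p = 0.0853), without passing the test. Edem2 of this list, also named after its values were seen, went the other way. It stood at 8.742 to 8.819 in control and 8.399 to 8.735 in irradiated rats. Against control, 11.3% of all probes were higher and 19% lower without overlap in TBI, and 9.35% were higher in MASM + TBI. None of the 11 of 16 translocation genes with a probe was called in limma. At an unadjusted p under 0.05 they counted 1, 0 and 1 in the same order of comparisons, beside 23.5%, 17% and 17% of all probes.

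The PERK and ATF4 arm, 8 of 10 genes with a probe, had 2 calls in TBI against control (25%), both higher, beside 5.63% of all probes called and 2.44% called higher. Atf4, the transcription factor of this arm, had levels of 12.78, 12.73 and 12.73 in control, 13.44, 13.35 and 13.20 in TBI, and 12.94, 12.93, 13.09 and 12.54 in MASM + TBI rats. All TBI rats were above all others, and the increase over control was 0.59 (SE 0.14, adjusted p = 0.0477), a call that was lost in 7 of the 10 fits leaving out 1 rat (adjusted p up to 0.131) and with the replicate block (0.0558). MASM + TBI minus TBI was −0.45 (adjusted p = 0.137). Sesn2, a stress-inducible sestrin that is a target of p53 as well as of ATF4, stood at 6.58, 6.54 and 6.74 in control, 7.38, 7.91 and 7.52 in TBI, and 7.29, 7.59, 7.49 and 7.52 in MASM + TBI rats. It rose by 0.98 in TBI (SE 0.14, adjusted p = 0.00933) and by 0.85 in MASM + TBI (SE 0.14, adjusted p = 0.0173), and all irradiated rats were above all control rats. Under normexp background correction the differences were 0.52 and 0.43, both still called. The TBI call held in all 10 fits that left out 1 rat but not with only the groups compared in the model (adjusted p = 0.0535), and the MASM + TBI call was lost without control rat 2 or MASM + TBI rat 4 (adjusted p 0.0516 and 0.0699), with the replicate block (0.0804) and with slide as a fixed block (0.0859). With the replicate block the calls of this list in TBI were Sesn2 (0.0377), Ppp1r15a (0.0379) and Chac1 (0.0461). Ddit3 (CHOP), a death-linked factor downstream of ATF4, was at −0.16 in TBI (adjusted p = 0.690) and −0.29 in MASM + TBI (adjusted p = 0.533) against control.

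**Figure D4:**
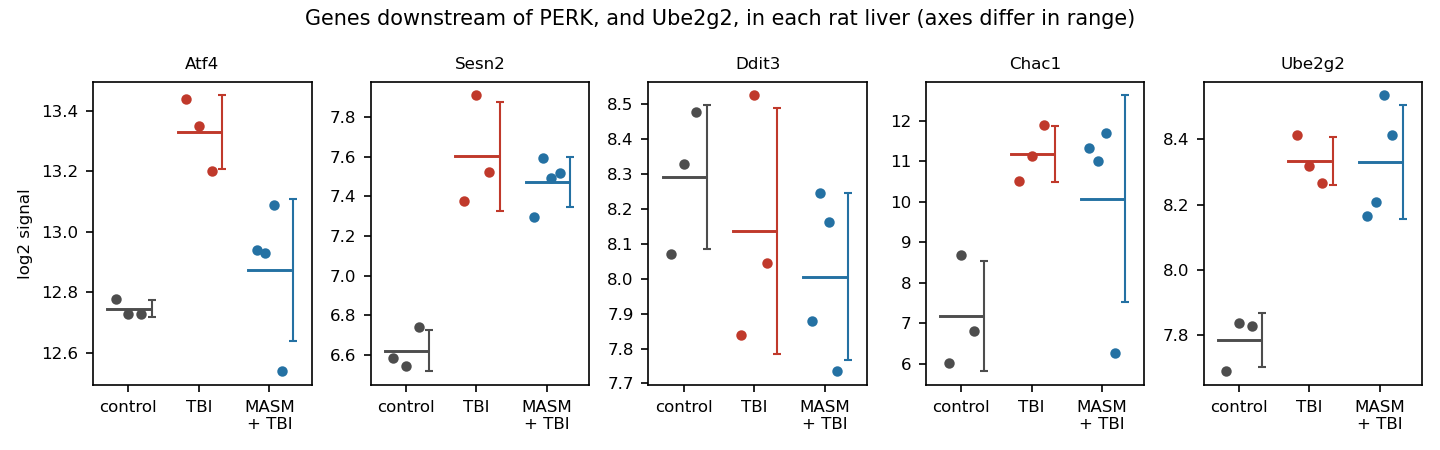
Log2 signal (y axis) of 4 genes of the PERK and ATF4 arm and of Ube2g2 in every rat (points), by group (x axis), with group mean (line) and SD (bar); the y axes differ in range. Atf4 was 13.20 to 13.44 in TBI rats and 12.54 to 13.09 in MASM + TBI rats, and MASM + TBI rat 4 had Chac1 at 6.27 while the other 3 rats of the group were at 11.00 to 11.70.

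Chac1, a glutathione-degrading enzyme under ATF4 control, had the largest estimate of the 62 genes and was singled out after its values were seen. Its log2 levels were 6.03, 8.68 and 6.82 in control, 10.51, 11.13 and 11.89 in TBI, and 11.34, 11.00, 11.70 and 6.27 in MASM + TBI rats. The TBI rats were all above the control rats, by 4.0 (SE 1.39, adjusted p = 0.131), and MASM + TBI rat 4 lay within the control range. A dimmer Chac1 probe was not well above background in MASM + TBI rat 4, and was at 6.17 to 7.24 in the other 3 rats of its group. The same rat was the lowest of its group for 6 of the 8 genes of this arm and the lowest of all 10 rats for 5, among them Atf3 (7.20), Ppp1r15a (6.37) and Nupr1 (11.04). The exceptions within the group were Sesn2 (7.52) and Asns (8.27), and its Cdkn1a level of 13.58 was the highest of its group. Over all probes this rat was the lowest of its group for 30.2% and the lowest of all 10 for 8.77%. Among cell type markers well above background on all arrays it was the lowest of all 10 rats for 3 of 4 T and natural killer cell markers (Gzmb, Nkg7 and Prf1), 2 of 7 Kupffer cell markers (Adgre1 and Clec4f) and 0 of 2 B and plasma cell markers. It was so for 0 of 10 hepatocyte, 0 of 4 endothelial, 0 of 6 cholangiocyte and stellate and 0 of 2 pancreatic markers. Over all probes detected in this way, as those of the 8 PERK arm genes were, it was the lowest of its group for 20.6% and the lowest of all 10 for 6.42%. The part of these cells in its PERK arm values was not tested. It was the lowest of its group for 0 of the 12 probes of the chaperones and UPR genes described first, and for 3 of the 22 other chaperones.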

How the data were processed

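Liver RNA of 10 rats was labelled with Cy3, hybridised to Agilent rat arrays and read with Feature Extraction 10.7 (10.7.3.1 in the file headers). The authors deposited intensity values on a linear scale, background-subtracted and not normalized between arrays. The deposited value table held the same values as the scanner files (difference 0). The precision is limited by the number of arrays.

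Control spots (1639 of 45018 per array) and outlier spots (76 to 112) were left out, and gMedianSignal stood in for an absent gMeanSignal in the normexp alternative. After log2 transformation and quantile normalization, spots of 1 probe were averaged and fitted with limma 3.58.1 (R 4.3.3) as 3 group means, with Benjamini-Hochberg adjustment over 40945 probes. Of 41012 probes, 67 lacked a value on an array. A probe's gene came from its accession in the RefSeq gene table, through which 16968 probes obtained a symbol, and the brightest probe stood for a gene. Figures were drawn with matplotlib 3.10.9 (Python 3.11.15). The fit was tested on simulated data.

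Groups and replicate numbers followed the labels of the arrays, and the names printed under a heat map of the study place the control and TBI arrays the other way round. Cdkn1a, a p53 target, was higher on all arrays labelled TBI (13.47 to 14.06) than on all labelled control (8.01 to 8.84). Each array held the RNA of a separate rat, so p-values measure the spread between rats. The labels do not say that a replicate number marks shared animals or days. Same-numbered control and TBI rats deviated together (r = 0.14 to 0.27 in all 3 pairs), so blocked values are given beside results of that comparison, whereas correlations with MASM + TBI rats ran from −0.34 to 0.36.

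The genes and gene lists were chosen with earlier results of these data known. Named genes were the 10 genes, 15 further pathway genes named whatever their values (of which Ern1, Manf and Edem1 were not analysed here), others of these lists with an adjusted p under 0.05, Cdkn1a, and the 5 genes most like Hspa5. Chac1, Atf3, Ppp1r15a, Nupr1, Asns, Ufd1, Sdf2, Edem2 and single cell type markers were named after their values were seen. Cell type marker lists covered hepatocytes, B and plasma, T and natural killer, Kupffer, endothelial, cholangiocyte and stellate, and pancreatic acinar cells. Endothelial markers had 0 calls of 4 in limma in any comparison (2, 2 and 0 at an unadjusted p under 0.05, beside 23.5%, 17% and 17% of all probes). Of 6 cholangiocyte and stellate markers, Lrat was called lower in TBI and in MASM + TBI against control. Of 7 pancreatic markers, Ctrb1 was called higher in TBI against control, Amy2a3 higher in MASM + TBI against control, and Amy2a3 higher and Ctrb1 lower in MASM + TBI against TBI (28.6%). Amy2a3 was well above background on 0 control, 3 TBI and 3 MASM + TBI arrays. All probes called were 5.63%, 2.99% and 1.63% in the 3 comparisons.

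Alternatives were scaling to the 75th percentile (also relative to the median probe, an alternative added after seeing the data, as was the methods' threshold), normexp with an offset of 50, dim probes left out, 2 groups per model, the methods' t-test (described as a simple one, run on log2 values in Welch's form and, added after seeing the data, with equal variances, and the Benjamini-Hochberg adjustment was added here), a trended robust prior, slide and replicate number as blocks, the mean of a gene's probes, the deposited table, and each rat left out.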

Additional observations from a re-analysis of the deposited data

Results flagged for a closer look

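Among 28 probes checked for a rat standing apart from its group in the 4 MASM + TBI rats, 1 met Dixon's 95% criterion, and chance picks out about 1 in 20 such groups. It was Chac1, where the gap between rat 4 (6.27) and the nearest of the other rats (11.00) took 0.871 of the range of the group. Chac1 was added to the probes checked after its values had been seen, so this is a description. Groups of 3 rats were not checked. The cause was not tested.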

How the results depend on the processing

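Group and slide cannot be told apart in the comparisons with TBI arrays, and 3 or 4 rats per group limit what the comparisons can detect. Of the 2 genes called in TBI against control, 1 was called under 75th percentile scaling (also relative to the median probe) and with 2 groups per model, and 0 under the methods' t-test in both forms, the methods' threshold, the mean of the probes and the replicate block. Hsp90b1 became the 1 gene called in MASM + TBI against control under normexp (adjusted p = 0.00477), the trended robust prior (0.0387) and slide as a random block (0.0323), but not with slide as a fixed block (0.238). The slide correlation in the random block was estimated as −0.13. A negative value does not widen the errors between slides, so calls gained with the random block are not read as corrected for slide. Herpud1 in TBI had an adjusted p of 0.0527 under 75th percentile scaling and 0.0887 relative to the median probe. With the adjustment added here, Hsp90b1 and Herpud1 in TBI had 0.209 and 0.194 under the methods' t-test, where 2 of the 9 genes had an unadjusted p under 0.05, and 0.0842 and 0.0531 in its equal-variance form. That of Herpud1 was 0.0765 for the mean of the probes.

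Under 75th percentile scaling the median log2 fold change of the genes was 0.17 in TBI and 0.19 in MASM + TBI against control, and 0.24 and 0.20 relative to the median probe. The median of all probes moved to −0.07, −0.01 and 0.08. That scaling called 18.2%, 1.99% and 13.3% of all probes, and dim probes left out gave 9.49% and 6.42% in the comparisons with control. The share of calls that were higher was 43.3%, 42.1% and 56% after quantile normalization and 24.3%, 42.8% and 82.4% under 75th percentile scaling.

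The count of other pathway genes called in TBI against control was 0 with 2 groups per model and under the methods' t-test in both forms. In MASM + TBI against control it was 1 under both forms of 75th percentile scaling, with 2 groups per model and in the t-test's equal-variance form, 6 under normexp, 5 with slide as a random block, and 0 under the methods' t-test, the replicate block and slide as a fixed block. In MASM + TBI against TBI it was 2 with slide as a random block.

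Dnajb9 changed sign near 0. In TBI against control it was 0.0284 under 75th percentile scaling and 0.0972 relative to the median probe. Against control in MASM + TBI it was 0.0423 and 0.0558 under these scalings, 0.252 with slide as a fixed block and 0.0588 for the mean of the probes. Against TBI it was 0.0139 (75th percentile), 0.0377 (normexp) and 0.206 (mean of the probes). Calr turned to 0.0700 and 0.0835 in MASM + TBI against control under the 75th percentile scalings, and Atf6 to −0.00089 in MASM + TBI against TBI relative to the median probe.

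With each rat left out, TBI against control gave 1 to 2 genes called, a median of 0.0579 to 0.179, 1 to 5 other pathway genes and 2.37 to 6.81% of all probes. MASM + TBI against control gave a median of −0.0169 to 0.0948, 0 to 2 pathway genes and 1.2 to 3.63% of probes. MASM + TBI against TBI gave a median of −0.149 to 0.0406 and 0.611 to 3.1% of probes. Signs changed in TBI against control for Dnajb9 (−0.106 to 0.0702) and Pdia4 (−0.138 to 0.384). They changed in MASM + TBI against control for Calr (−0.138 to 0.0322), Dnajb9 (−0.121 to 0.0608) and Pdia6 (−0.0229 to 0.123), and against TBI for Atf6 (−0.149 to 0.165), Dnajb9 (−0.105 to 0.0769), Hspa5 (−0.0133 to 0.0779) and Pdia4 (−0.206 to 0.316).

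The deviations of same-numbered rats correlated weakly in all 3 control and TBI pairs (r = 0.14 to 0.27). With MASM + TBI rats the correlations had both signs (−0.34 to 0.36). Of 9 arrays compared, 7 were most like another array of their own number, and the labels give no pairing. With the replicate block, all-probe calls were 1053, 298 and 22 in place of 2305, 1225 and 666, and Hsp90b1 and Herpud1 in TBI had adjusted p = 0.0591 and 0.103. The methods' t-test in Welch's form passed 2900, 2354 and 1649 probes at the methods' threshold of an unadjusted p and a fold, with 0 of the 9 genes in each comparison, and 10, 40 and 4 probes after the adjustment added here. With equal variances these were 3695, 2824 and 2380 probes, again 0 genes, and 154, 551 and 58 probes. The Sesn2 difference was 0.52 in TBI and 0.43 in MASM + TBI under normexp, against 0.98 and 0.85. Its call ended under the methods' t-test in Welch's form (adjusted p = 0.259 and 0.0729). Under the settings that kept all rats, apart from the deposited table, whose values are identical, 316 values of single genes kept direction and side of the threshold, 32 lost the call, 3 gained one and 12 changed sign. The causes of the changes were not tested.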
